A study of Mus musculus with 16 samples.

Results

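Gene expression was compared between marrow CD8+ T cells of mice with bone marrow failure that had received baricitinib (BAR) and those of mice with bone marrow failure that had not (BMF), both 14 days after induction of the disease. The comparison took the 3 libraries labelled BAR-day14 and the 3 labelled BMF-day14, which are 6 of the 16 libraries of the series. The other 10, with 5 per arm, came from day 10 and served to estimate the spread of each gene and to compare the drug effect between days. Both arms carry the disease, so neither is a healthy baseline. The design text speaks of pooled cells and does not tie a library to a mouse. The p-values therefore reflect only how far libraries of an arm lie apart, part of which may be technical. The labels used here name no strain, age, sex, drug dose or way of inducing the disease. CD8+ T cells were isolated by flow sorting, and their polyA RNA went into SMART-Seq mRNA LP libraries.

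Bone marrow failure of the immune kind is a disease in which T cells destroy blood-forming cells, so that red cells, neutrophils and platelets are lost from the blood. Interferon gamma, made by activated CD8 T cells, is one of its main agents. Baricitinib inhibits JAK1 and JAK2, kinases bound to the receptors for interferons and for many interleukins. When a ligand binds, JAKs phosphorylate STAT proteins, which enter the nucleus. STAT4 carries the interleukin-12 signal and STAT5 that of interleukins 2, 7 and 15. JAK2 also serves the erythropoietin and thrombopoietin receptors.

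The 3 BAR libraries held 36794340, 43025758 and 44645553 counts, against 39123866, 43277218 and 44328823 in the 3 BMF libraries. Transcripts of the T cell receptor complex were abundant in all 6. Cd8a, a chain of the CD8 coreceptor (ENSMUSG00000053977, chromosome 6, 71373427 to 71379173, plus strand, build mm10), was at 657, 597 and 716 CPM (counts scaled to library size, on TMM-scaled sizes) in BAR libraries, against 941, 869 and 686 CPM in BMF libraries. The arms overlapped, and the difference was not called (log2 -0.34, SE 0.134, edgeR adjusted p = 0.0694). Cd3e, a chain of the receptor complex, was between 1079 and 1327 CPM in BAR libraries and between 1569 and 1688 CPM in BMF libraries. Rn45s, the ribosomal RNA precursor, took 0.714% to 2.38% of counts in BAR libraries and 1.70% to 2.52% in BMF libraries. One library stood apart from its arm: BMF replicate 1 had the least neutrophil RNA of the 6, as given below.

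Of 14862 genes tested, 3738 (25.2%) differed between the arms at an adjusted p of at most 0.05 in edgeR's quasi-likelihood test. Of these, 1923 (12.9% of those tested) rose and 1815 (12.2%) fell in BAR. The rises were larger: 1083 genes rose by at least 2-fold, and 175 fell by at least 2-fold. The values of the 3 libraries of 1 arm lay wholly above those of the other in 6429 genes, 43.3% of all tested, and in 96.3% of those called. The median log2 fold change over all genes was -0.0075. The biological coefficient of variation, the spread between libraries beyond counting error, was 0.198. The count was 2153 without BAR replicate 2, 2289 without BMF replicate 1 and 2119 without BMF replicate 2, and lay between 2898 and 4051 without any one of the other libraries.

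Among the marker lists, that of red cell precursors rose most. All 25 erythroid markers tested were called: 24 rose and 1 fell, and their median log2 fold change was 5.53. Klf1, the master regulator of the erythroid programme, was at 70.6, 63.8 and 39.6 CPM in BAR libraries, against 0.0529, 0.918 and 0.670 CPM in BMF libraries (log2 6.70, SE 0.947, adjusted p = 0.000441). BAR replicate 1 was the highest, and no BMF library came near the lowest BAR library. Rhag, which encodes the Rh-associated glycoprotein, rose by 6.91 on the log2 scale, Cldn13 by 7.02 and Ermap, an erythroid membrane protein gene, by 6.73. The 1 marker that fell was Xpo7, a nuclear exporter that many cell types express, at log2 -0.43 (adjusted p = 0.0118). Xpo7 was singled out after its value was seen, and it was not called without BAR replicate 2 (adjusted p = 0.0721) or BMF replicate 2 (adjusted p = 0.0756).

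The whole erythroid list summed to 2168, 1377 and 1201 CPM in BAR libraries, against 169, 240 and 241 CPM in BMF libraries, a ratio of means of 7.30. Of its 29 markers, Hbb-bs, Hbb-bt, Hba-a1 and Hba-a2, the adult globin genes that red cell precursors express most, stood at 0 counts in all 16 libraries. Globin RNA can therefore not be used as a measure here. Of the 15 genes with the largest rises outside every marker list, at 10 CPM or more in an arm, several are known red cell genes. Aqp1, the water channel of the red cell membrane, was at 51.4, 27.7 and 23.5 CPM in BAR libraries, against 0, 0.223 and 0.416 CPM in BMF libraries (log2 7.26, SE 0.792, adjusted p = 7.84e-05). Ank1, the ankyrin of the red cell skeleton, rose by 6.53 on the log2 scale and Pklr, the pyruvate kinase of liver and red cells, by 6.42. Sphk1, a sphingosine kinase, rose by 7.83 and Slc38a5, a glutamine transporter, by 7.33. The other members of those 15 were Abcb4, Add2, Tspan33, Atp1b2, Apol11b, Nxpe2, Smim1, Ces2g, Tmcc2 and Hspa1a.

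**Figure D1:**
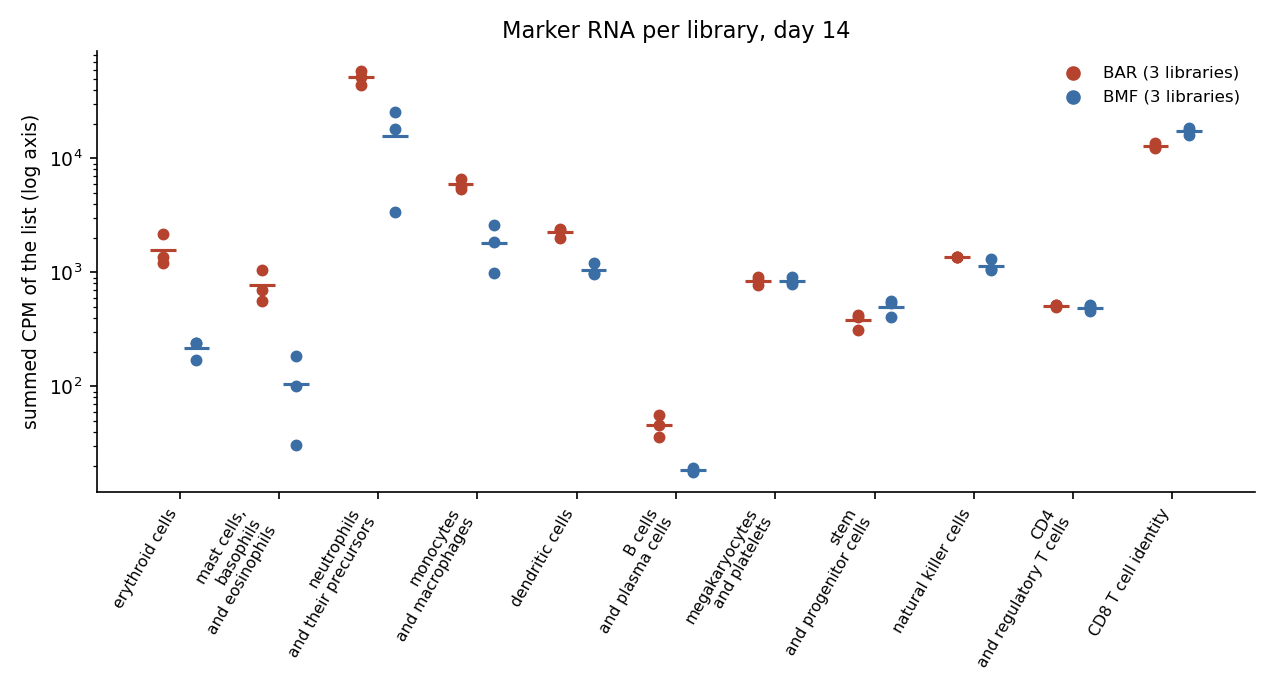
Summed CPM of each marker list and of the CD8 T cell identity list (vertical axis, log scale) in single day 14 libraries, BAR (red) left of BMF (blue), with a line at each arm's mean. Erythroid RNA lies between 1201 and 2168 CPM in BAR and between 169 and 241 CPM in BMF, and T cell identity RNA lies lower in all 3 BAR libraries.

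RNA of mast cells, basophils and eosinophils was also more abundant in BAR libraries. The megakaryocyte and the progenitor lists had more rises than falls, but their summed RNA overlapped between the arms. Of 21 markers of mast cells, basophils and eosinophils, 13 rose and none fell, with a median log2 fold change of 4.08. Prss34, a basophil protease gene, was at 166, 463 and 244 CPM in BAR libraries, against 0.794, 3.82 and 22 CPM in BMF libraries (log2 5.02, SE 1.10, adjusted p = 0.00621). Cd200r3, a receptor of basophils and mast cells, rose by 5.29 on the log2 scale. Of 17 megakaryocyte and platelet markers, 8 rose and 3 fell. Their sums overlapped, at 905, 772 and 853 CPM in BAR libraries, against 796, 816 and 918 CPM in BMF libraries. Gfi1b, a transcription factor shared by erythroid cells and megakaryocytes, rose by 6.68 and Gp5, a platelet glycoprotein gene, by 2.99. Of 18 stem and progenitor markers, 9 rose and 3 fell. Gata2, a transcription factor of progenitors and mast cells, was at 6.28, 8.38 and 7 CPM in BAR libraries, against 0.423, 0.199 and 0.439 CPM in BMF libraries (log2 4.34, SE 0.610, adjusted p = 0.000205). Cd34, the progenitor surface antigen, rose by 3.77 (adjusted p = 0.00908), a call that was lost without BMF replicate 2 (adjusted p = 0.0534). Summed over the list, stem and progenitor RNA was 419, 314 and 404 CPM in BAR libraries, against 534, 555 and 406 CPM in BMF libraries, so the sum, which rests on the more abundant members, did not follow the count.

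Neutrophil markers had the largest summed RNA of the marker lists. The 32 markers summed to 52209, 58663 and 43894 CPM in BAR libraries, against 3371, 18127 and 25504 CPM in BMF libraries. BMF replicate 1 lay far below the other BMF libraries, and all 3 BAR libraries lay above all BMF libraries. In edgeR 1 of the 32 members was called, against 15 rises in DESeq2, 24 in limma voom and 15 in edgeR on the T cell identity scaling described below. The median log2 fold change was 1.73 in edgeR, and 28 were higher in every BAR library than in any BMF library. Over all tested genes the arms did not overlap in 43.3%, counting both directions. S100a8, a calcium-binding protein of neutrophils, was at 15288, 10534 and 10147 CPM in BAR libraries, against 960, 6239 and 6602 CPM in BMF libraries (log2 1.38, SE 0.685, adjusted p = 0.161). Mpo, the myeloperoxidase of neutrophil precursors, was at 1306, 2093 and 1644 CPM in BAR libraries, against 22.3, 208 and 951 CPM in BMF libraries (log2 2.09, SE 1.09, adjusted p = 0.183). The member called in edgeR was Pglyrp1, a bactericidal peptidoglycan-binding protein, at log2 0.63 (adjusted p = 0.0164). That call was lost without BAR replicate 2 (adjusted p = 0.0744) and without BMF replicate 1 (adjusted p = 0.0829).

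The monocyte and macrophage list divided. Of 34 members, 12 rose and 10 fell. Ly86, a partner of the receptor-like protein CD180 on myeloid cells, was at 20.9, 24.2 and 26.3 CPM in BAR libraries, against 3.12, 4.22 and 4.92 CPM in BMF libraries (log2 2.54, SE 0.495, adjusted p = 0.0028). Lyz2, the myeloid lysozyme, rose by 2.17 on the log2 scale (adjusted p = 0.0337), but its call was lost without any one of BAR replicates 1 to 3 or BMF replicates 1 and 2 (adjusted p = 0.0561 to 0.104). Members that fell included genes known from tissue-resident macrophages. Mrc1, the mannose receptor, was at 1.45, 1.6 and 1.41 CPM in BAR libraries, against 8.63, 4.79 and 4.99 CPM in BMF libraries (log2 -2.04, SE 0.411, adjusted p = 0.00189). C1qa, a complement subunit gene named after its value was seen, was at 4.89, 4.72 and 4.69 CPM in BAR libraries, against 14.6, 9.40 and 10.0 CPM in BMF libraries (log2 -1.25, SE 0.238, adjusted p = 0.00114). Natural killer markers had 1 rise and 8 falls among 16 members, although their summed RNA was higher, at 1363, 1376 and 1363 CPM in BAR libraries, against 1060, 1052 and 1316 CPM in BMF libraries. The list shares Prf1, Gzma and Eomes with the T cell lists below, and Tyrobp and Fcer1g with the monocyte and macrophage list. Prf1 averaged 704 CPM in BAR and 521 CPM in BMF libraries, and Gzma 36.3 and 221 CPM, so the sum is no measure of natural killer RNA alone. Klrb1c, the NK1.1 antigen, was at 0.250, 0.453 and 0.205 CPM in BAR libraries, against 4.13, 0.819 and 1.73 CPM in BMF libraries (log2 -2.86, SE 0.71, adjusted p = 0.00859). Itga2, the integrin CD49b of natural killer cells, fell by 1.77 (adjusted p = 0.00192).

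Dendritic cell markers gave 6 rises and 1 fall among 24, B cell and plasma cell markers 2 rises among 23, CD4 and regulatory T cell markers 2 rises among 14, and stroma and endothelium 3 rises among 20. Over all tested genes 12.9% rose. The B cell (8.7%), CD4 (14.3%) and stromal (15%) shares of rises lie near that and are no result about those cells. None of 6 gamma delta T cell markers was called, and the list of sex-linked genes, kept as a check on the animals, had 1 tested member, which was not called. Dendritic cell RNA summed to 2013, 2376 and 2340 CPM in BAR libraries, against 973, 977 and 1217 CPM in BMF libraries. Exact two-sided permutation tests on the marker sums gave p = 0.1, the smallest possible with 3 against 3 libraries, for the erythroid, neutrophil, monocyte, dendritic, B cell, basophil, natural killer and gamma delta lists (0.163 adjusted over 13 lists). In bulk RNA, more cells of a type and more RNA per cell cannot be told apart, and whether this RNA came from sorted cells or from material carried along with them was not tested.

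**Figure D2:**
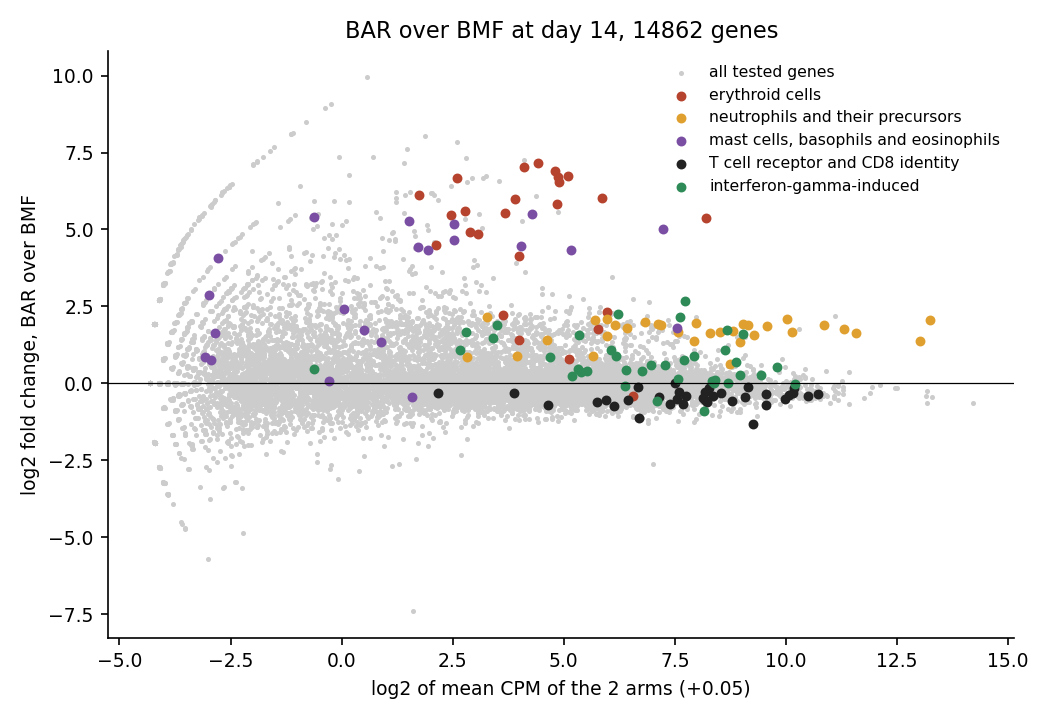
log2 fold change of BAR over BMF at day 14 (vertical axis) against log2 of the mean CPM of both arms (horizontal axis) for 14862 genes. Erythroid markers (red) and basophil and mast cell markers (purple) lie highest, with medians of 5.53 and 4.08, neutrophil markers (orange) near their median of 1.73, interferon-gamma-induced genes (green) around 0.57, and T cell receptor and CD8 identity genes (black) mostly below 0.

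T cell identity genes were lower in BAR libraries per unit of all RNA. Of 35 tested members of the T cell receptor and CD8 identity list, 24 fell and none rose, and the median log2 fold change was -0.44. Their summed RNA was 12414, 12674 and 13634 CPM in BAR libraries, against 18384, 17687 and 16006 CPM in BMF libraries, with no overlap. Thy1, the T cell surface antigen CD90, was at 232, 238 and 249 CPM in BAR libraries, against 374, 385 and 327 CPM in BMF libraries (log2 -0.60, SE 0.148, adjusted p = 0.0071). Cd8b1, the other chain of CD8, had a log2 fold change of -0.49 (adjusted p = 0.011), a call lost without BMF replicate 1 (adjusted p = 0.077) or BMF replicate 2 (adjusted p = 0.0502). Cd3e had -0.40 (adjusted p = 0.0383) and was not called without BAR replicate 2 or 3 or any BMF replicate (adjusted p = 0.0516 to 0.182).

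The falls were not equal across the list. Cd7, an immunoglobulin-family receptor of T and natural killer cells, was at 298, 302 and 443 CPM in BAR libraries, against 898, 952 and 783 CPM in BMF libraries (log2 -1.34, SE 0.264, adjusted p = 0.00252). Rasgrp1, which links the T cell receptor to RAS, was at 73.0, 54.8 and 67.1 CPM in BAR libraries, against 157, 160 and 110 CPM in BMF libraries (log2 -1.13, SE 0.137, adjusted p = 4.11e-05). Prkcq, protein kinase C theta, fell by 0.68 on the log2 scale. When libraries were scaled to the T cell identity genes themselves, the median log2 fold change of all genes moved to 0.40, and 6403 genes (43.1% of those tested) rose and 201 (1.35%) fell. On that scale the list gave 3 rises and 5 falls, with a median of -0.0074. That median and the balance of calls follow largely from the scaling, since the list's own genes set it. Cd7 stood at log2 -0.92 (adjusted p = 0.0014), Rasgrp1 at -0.69 (adjusted p = 0.0014) and Prkcq at -0.24 (adjusted p = 0.034). The counts of the functional lists below are therefore given on both scales, per all RNA first and relative to T cell identity RNA second. Those on the second scale stand against 43.1% of all tested genes that rose there, so that a share of rises near it is no result about a list. Likewise, a single gene that rose there by about the median of 0.40 moved as the typical gene did. Gbp10, Pim1, Prf1, Pdcd1, Tcf7 and Zeb2, given below as not called per all RNA, were called higher on the second scale. They lay between log2 0.31 for Pdcd1 (adjusted p = 0.0317), which is below that median, and 0.84 for Prf1 (adjusted p = 0.0013).

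Genes induced by interferon gamma were higher in BAR libraries. Of 38 members, 20 rose and 2 fell (median log2 fold change 0.57), and relative to T cell identity RNA 34 rose and 1 fell, with a median of 0.98. Gbp2, a guanylate-binding protein that acts against intracellular pathogens (chromosome 3, 142620602 to 142638008, plus strand), was at 540, 700 and 650 CPM in BAR libraries, against 147, 194 and 228 CPM in BMF libraries (log2 1.73, SE 0.191, adjusted p = 3.44e-05). The lowest BAR library was above the highest BMF library by more than the whole range of the BMF arm. Irgm1, an immunity-related GTPase, was at 279, 334 and 335 CPM in BAR libraries, against 166, 180 and 170 CPM in BMF libraries (log2 0.87, SE 0.101, adjusted p = 2.91e-05). Irgm2, of the same family, rose by 1.09 on the log2 scale and Lap3, a leucine aminopeptidase, by 0.90. Iigp1, another such GTPase and the largest rise of the list, named after its value was seen, was at 319, 401 and 386 CPM in BAR libraries, against 38.2, 53.2 and 81.4 CPM in BMF libraries (log2 2.68, SE 0.352, adjusted p = 0.000232).

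Ifng was at 355, 172 and 260 CPM in BAR libraries, against 184, 203 and 195 CPM in BMF libraries. BAR replicate 2 lay below every BMF library and the difference was not called (log2 0.44, SE 0.274, adjusted p = 0.267), but relative to T cell identity RNA it rose (log2 0.86, adjusted p = 0.0212). Ifngr1, the ligand-binding chain of the receptor, was at 281, 305 and 300 CPM in BAR libraries, against 590, 499 and 510 CPM in BMF libraries (log2 -0.85, SE 0.0945, adjusted p = 1.96e-05). It was lower also relative to T cell identity RNA (log2 -0.42, adjusted p = 0.0043). Gbp10, whose reads could be shared with its near-identical copy Gbp6, was at 26.7, 45.8 and 45.1 CPM in BAR libraries, against 35.4, 33.5 and 29.98 CPM in BMF libraries (log2 0.25, adjusted p = 0.244). Myeloid cells also respond to interferon gamma, and the neutrophil and monocyte sums given above were higher in the same 3 BAR libraries. With the neutrophil covariate the log2 fold change was 1.28 for Gbp2 (adjusted p = 0.0002) and 1.89 for Iigp1 (adjusted p = 0.0003), down from 1.73 and 2.68 without it. With the erythroid covariate neither was called, at 0.77 for Gbp2 (adjusted p = 0.80) and 0.83 for Iigp1 (adjusted p = 0.88). The erythroid and the neutrophil sums both lie wholly apart between the arms at day 14, so neither covariate can be told apart from the treatment.

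**Figure D3:**
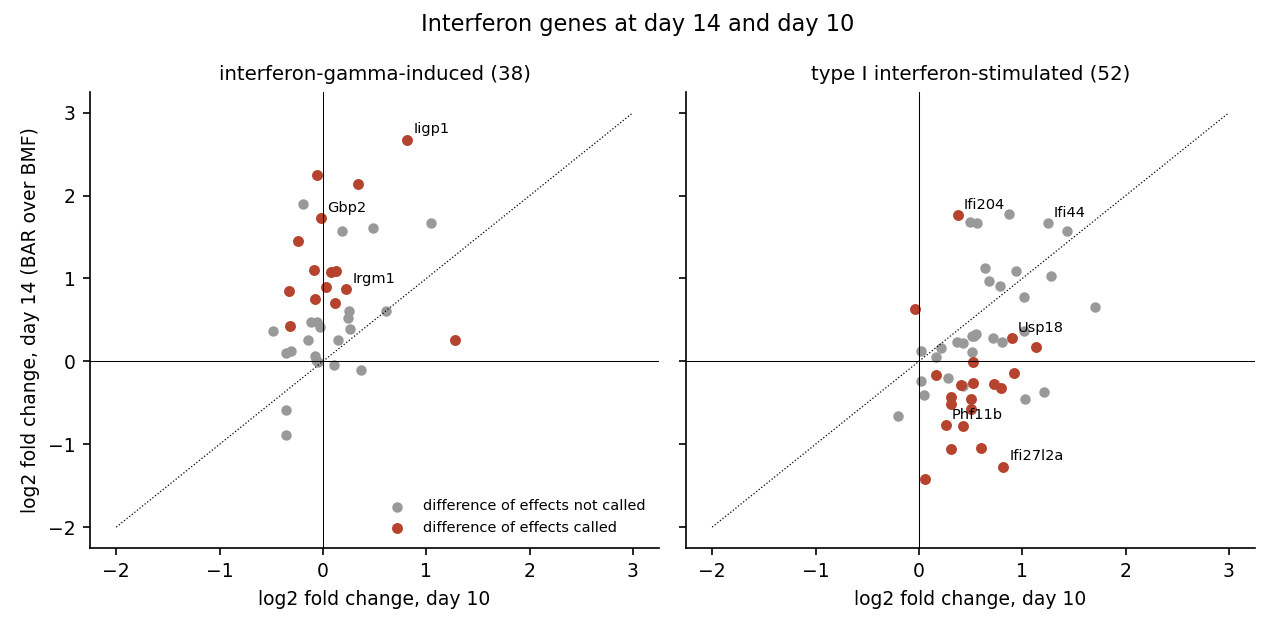
log2 fold change of BAR over BMF at day 14 (vertical axis) against that at day 10 (horizontal axis) for interferon-gamma-induced genes (left, 38) and type I interferon-stimulated genes (right, 52), with red points where the effects of the 2 days differed in the edgeR test and a dotted line of equality. Red points lie above the line in 14 of 15 cases on the left and below it in 19 of 21 on the right.

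Type I interferon-stimulated genes moved in both directions. Of 52 members, 11 rose and 13 fell (median log2 fold change 0.12), and relative to T cell identity RNA 28 rose and 5 fell. Among those that fell was Ifi27l2a, a small interferon-induced membrane protein gene (chromosome 12, 103442167 to 103443680, minus strand), at 146, 116 and 165 CPM in BAR libraries, against 411, 390 and 230 CPM in BMF libraries (log2 -1.27, SE 0.200, adjusted p = 0.000399). Phf11b was at 112, 99.9 and 129 CPM in BAR libraries, against 214, 210 and 156 CPM in BMF libraries (log2 -0.77, SE 0.122, adjusted p = 0.000298). Among those that rose was Isg20, an RNA exonuclease, at 76.9, 88.8 and 77.2 CPM in BAR libraries, against 40.1, 43.7 and 45.3 CPM in BMF libraries (log2 0.91, SE 0.129, adjusted p = 0.000123). Ifi204, a DNA sensor that myeloid cells express, rose by 1.76 on the log2 scale and Ifi44 by 1.67. Some of the most widely used reporters of the response were called only relative to T cell identity RNA. Isg15, a ubiquitin-like modifier, was at 74.8, 106 and 112 CPM in BAR libraries, against 84.5, 85.4 and 70.1 CPM in BMF libraries (log2 0.29, adjusted p = 0.264). Usp18, the protease that removes it, stood at log2 0.28 (adjusted p = 0.174) and Irf7, which amplifies the response, at 0.17 (adjusted p = 0.552). Relative to T cell identity RNA, Isg15 and Usp18 rose by 0.71 each (adjusted p = 0.0056 and 0.0057) and Irf7 by 0.59 (adjusted p = 0.0493), where the median over all tested genes was 0.40.

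Of 43 components of the JAK-STAT pathway, 8 rose and 12 fell (median log2 fold change -0.13), and relative to T cell identity RNA 19 rose and 1 fell, a share of rises close to the 43.1% of all tested genes. The drug's targets changed little at the RNA level. Jak1 was at 765, 768 and 855 CPM in BAR libraries, against 1007, 1052 and 947 CPM in BMF libraries (log2 -0.33, SE 0.105, adjusted p = 0.0276). Relative to T cell identity RNA it stood at 0.09 (adjusted p = 0.48), and without BAR replicate 1 or 2 or BMF replicate 1 or 2 it was not called (adjusted p = 0.0788 to 0.117). Jak2 was at 124, 92.5 and 108 CPM in BAR libraries, against 122, 129 and 114 CPM in BMF libraries (log2 -0.17, adjusted p = 0.266). Stat4 had a log2 fold change of -0.36 (adjusted p = 0.00851), which was 0.07 relative to T cell identity RNA. Stat3 (log2 0.20, adjusted p = 0.218) and Stat5a (log2 0.07, adjusted p = 0.588) were not called per all RNA, and rose relative to T cell identity RNA (Stat3 0.61, adjusted p = 0.0015, and Stat5a 0.50, adjusted p = 0.0019). The median over all tested genes was 0.40 on that scale, so Stat5a lay near the typical gene.

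Feedback genes and cytokine receptors differed among themselves. Cish, an inhibitor that STAT5 induces (chromosome 9, 107296026 to 107302784, plus strand), was at 16.3, 17.8 and 16.7 CPM in BAR libraries, against 48.2, 33.3 and 27.1 CPM in BMF libraries (log2 -1.10, SE 0.249, adjusted p = 0.00549). Relative to T cell identity RNA its log2 fold change was -0.65 (adjusted p = 0.056). Socs1, an inhibitor induced by interferon gamma, stood at log2 0.42 (adjusted p = 0.0368) and lost its call without BAR replicate 2 or 3 or BMF replicate 2 or 3 (adjusted p = 0.0803 to 0.157). Socs3 (log2 0.33, adjusted p = 0.451) and Pim1 (log2 0.06, adjusted p = 0.819), both STAT targets, were not called. Il12rb2, the signalling chain of the interleukin-12 receptor (chromosome 6, 67291318 to 67376188, minus strand), was at 5.31, 3.46 and 4.06 CPM in BAR libraries, against 14.0, 11.8 and 7.55 CPM in BMF libraries (log2 -1.38, SE 0.223, adjusted p = 0.000363). Il2ra, the alpha chain of the interleukin-2 receptor, stood at log2 -0.27 (adjusted p = 0.531) and Il7r, the interleukin-7 receptor, at -1.06 (adjusted p = 0.0902).

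Of 34 STAT5 and common gamma chain targets, 6 rose and 11 fell (median log2 fold change -0.16), and relative to T cell identity RNA 13 rose and 5 fell. Bcl2, which protects T cells from apoptosis (chromosome 1, 106538178 to 106714274, minus strand), was at 68.9, 72.1 and 67.0 CPM in BAR libraries, against 226, 143 and 136 CPM in BMF libraries (log2 -1.28, SE 0.174, adjusted p = 0.000123). The BAR libraries lay close together, all below the lowest BMF library, and BMF replicate 1 was the highest. Pim2, a survival kinase, was at 68.7, 82.9 and 77.6 CPM in BAR libraries, against 182, 131 and 125 CPM in BMF libraries (log2 -0.93, SE 0.137, adjusted p = 0.000155). Both were lower also relative to T cell identity RNA (Bcl2 log2 -0.84, adjusted p = 0.0037, and Pim2 log2 -0.50, adjusted p = 0.013).

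Promoter sequences of named genes are shown because STAT dimers bind TTCNNNGAA and interferon regulatory factors bind pairs of GAAA with 2 bases between them, here called the paired GAAA motif. RefSeq promoters (GRCm38.p6, the stretch around a gene's start) were found for 11207 of the 14862 genes tested, and each was searched on both strands for these letters. TTCNNNGAA occurred in 8.66% of all tested promoters, in 124 of 1388 (8.93%) of genes that rose outside the marker lists and in 112 of 1362 (8.22%) of those that fell. The paired GAAA motif occurred in 3.93% of all, in 73 (5.26%) of those that rose and in 49 (3.6%) of those that fell. Of 24 interferon-gamma-induced genes with a promoter in the table, 12 held the paired GAAA motif, and of the 14 of them that rose 11 did. TTCNNNGAA was held by 10 of the 24 and by 5 of the 14 that rose. Among type I interferon-stimulated genes 21 of 40 held the paired GAAA motif, 5 of the 8 that fell and 1 of the 8 that rose. TTCNNNGAA was held by 6 of the 40, by 0 of the 8 that fell and by 1 of the 8 that rose. Capitals mark the matches in the sequences, which are written 5′ to 3′ on the strand of the gene. Cish (chr9:107296409-107296708, plus strand) and Il12rb2 (chr6:67376139-67376438, minus strand) fell and hold TTCNNNGAA. These letters are also found at Gzmb, which fell, at Sphk1, which rose, and at Ifng, Il7r, Socs3 and Zeb2, which were not called per all RNA. Gzma (chr13:113100932-113101231, minus strand) fell and holds the paired GAAA motif, read on the opposite strand. The paired GAAA motif is also found at Eomes and Stat4, which fell, and at Socs1, which rose. Apol11b (chr15:77643237-77643536, minus strand) rose by 5.56 on the log2 scale and holds both. Isg15 (chr4:156200769-156201068, minus strand), with no call, holds 3 overlapping copies of the paired GAAA motif. A match is a description of these letters and not evidence of binding.
Cish: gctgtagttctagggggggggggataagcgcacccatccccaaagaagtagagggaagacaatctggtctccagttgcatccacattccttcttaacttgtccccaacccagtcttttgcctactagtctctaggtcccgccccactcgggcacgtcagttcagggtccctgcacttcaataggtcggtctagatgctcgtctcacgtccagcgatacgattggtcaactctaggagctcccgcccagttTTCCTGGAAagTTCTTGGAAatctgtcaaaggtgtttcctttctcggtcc
Il12rb2: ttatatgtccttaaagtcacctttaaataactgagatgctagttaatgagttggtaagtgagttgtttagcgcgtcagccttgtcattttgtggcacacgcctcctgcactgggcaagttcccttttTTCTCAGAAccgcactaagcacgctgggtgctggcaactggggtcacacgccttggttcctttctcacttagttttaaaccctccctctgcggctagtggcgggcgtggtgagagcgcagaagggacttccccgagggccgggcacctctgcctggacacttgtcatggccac
Gzma: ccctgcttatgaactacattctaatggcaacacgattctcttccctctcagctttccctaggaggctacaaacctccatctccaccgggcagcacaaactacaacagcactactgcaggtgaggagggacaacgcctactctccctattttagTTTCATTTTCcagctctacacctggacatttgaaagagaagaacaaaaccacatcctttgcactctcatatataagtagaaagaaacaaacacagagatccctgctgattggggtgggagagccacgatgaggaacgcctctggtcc
Apol11b: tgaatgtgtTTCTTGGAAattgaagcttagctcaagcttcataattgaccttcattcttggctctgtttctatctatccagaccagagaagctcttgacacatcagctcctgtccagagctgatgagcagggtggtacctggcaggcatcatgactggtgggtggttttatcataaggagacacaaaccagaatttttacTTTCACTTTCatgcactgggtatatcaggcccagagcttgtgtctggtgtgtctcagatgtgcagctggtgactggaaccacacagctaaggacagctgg
Isg15: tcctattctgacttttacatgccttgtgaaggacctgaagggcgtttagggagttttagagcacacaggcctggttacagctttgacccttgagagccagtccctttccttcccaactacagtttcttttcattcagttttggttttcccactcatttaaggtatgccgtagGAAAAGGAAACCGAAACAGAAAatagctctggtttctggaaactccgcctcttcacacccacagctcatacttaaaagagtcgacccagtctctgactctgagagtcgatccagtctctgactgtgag

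Of 32 cytotoxic effector genes, 5 rose and 13 fell (median log2 fold change -0.25), and relative to T cell identity RNA 12 rose and 6 fell, with a median of 0.17. Gzma, the granzyme A gene (chromosome 13, 113093825 to 113100981, minus strand), had the largest fall of the list at 25.5, 44.4 and 39.0 CPM in BAR libraries, against 276, 170 and 218 CPM in BMF libraries (log2 -2.61, SE 0.264, adjusted p = 3.61e-05). On the T cell scale it stood at -2.18 (adjusted p = 6.7e-05). Natural killer cells express Gzma too, and the list of their markers contains it. Gzmb, granzyme B, was at 333, 428 and 473 CPM in BAR libraries, against 669, 649 and 547 CPM in BMF libraries (log2 -0.60, SE 0.155, adjusted p = 0.00973), and its value on the T cell scale was -0.17 (adjusted p = 0.37). Gzmk, granzyme K, stood at log2 -0.66 (adjusted p = 0.0179) and lost its call without BAR replicate 2 or BMF replicate 1 or 2 (adjusted p = 0.0601 to 0.104). Perforin did not follow the granzymes: Prf1 was at 684, 706 and 724 CPM in BAR libraries, against 468, 451 and 645 CPM in BMF libraries (log2 0.43, SE 0.176, adjusted p = 0.0793). Fasl, the death ligand, fell by 0.52 on the log2 scale (adjusted p = 0.00196), with -0.09 on the T cell scale. Serpinb9, an inhibitor of granzyme B, fell by 0.73 (adjusted p = 0.000736). Ccl3, a chemokine, was at 765, 662 and 699 CPM in BAR libraries, against 318, 369 and 434 CPM in BMF libraries (log2 0.92, SE 0.179, adjusted p = 0.00152). Tnf was between 2.01 and 2.64 CPM in BAR libraries and between 1.06 and 1.89 CPM in BMF libraries, without a call (adjusted p = 0.298).

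Of 37 effector differentiation genes, 1 rose and 19 fell (median log2 fold change -0.44), and relative to T cell identity RNA 9 rose and 6 fell, with a median of 0.0092. Tbx21, which encodes T-bet, the master regulator of effector CD8 T cells, was at 115, 104 and 121 CPM in BAR libraries, against 206, 195 and 143 CPM in BMF libraries (log2 -0.68, SE 0.128, adjusted p = 0.00104). Its value on the T cell scale was -0.25 (adjusted p = 0.126). Runx3, a factor of cytotoxic lineage choice, fell by 0.69 (adjusted p = 0.000219) and Id2, an inhibitor of E proteins, by 0.93 (adjusted p = 0.000634), and both were called on the T cell scale, at -0.26 and -0.49. Ahnak, a large scaffold protein gene, was at 223, 196 and 211 CPM in BAR libraries, against 460, 502 and 338 CPM in BMF libraries (log2 -1.05, SE 0.188, adjusted p = 0.000973). S100a4, a calcium-binding protein of effector cells, stood at log2 -1.21 (adjusted p = 0.0317) and Klrg1, a marker of terminal effectors, at -0.83 (adjusted p = 0.0233). Eomes, a relative of T-bet, stood at -0.39 (adjusted p = 0.021). Without BAR replicate 2 or BMF replicate 2 none of S100a4, Klrg1 and Eomes was called (adjusted p = 0.0818 to 0.127), and S100a4 and Klrg1 were not called without BAR replicate 3 or BMF replicate 1 (adjusted p = 0.0669 to 0.102). Zeb2 (log2 0.33, adjusted p = 0.22) and Cx3cr1 (log2 -0.37, adjusted p = 0.128), other genes of terminal effectors, were not called.

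**Figure D4:**
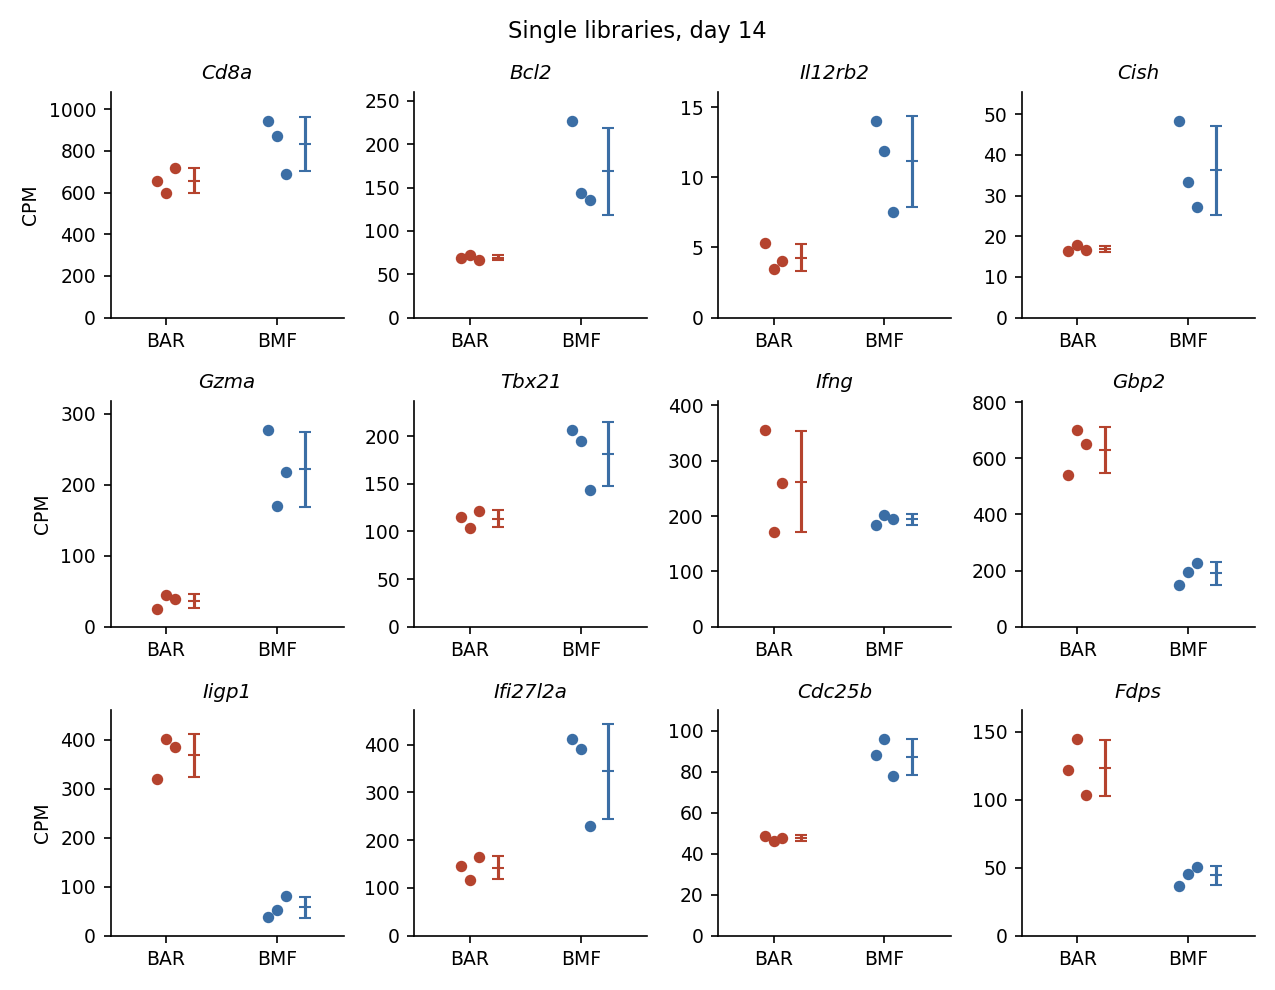
CPM (vertical axes, from 0) of 12 genes in single day 14 libraries, BAR (red) left of BMF (blue), with the mean and SD of 3 libraries beside the points. Bcl2, Il12rb2, Cish, Gzma, Tbx21, Ifi27l2a and Cdc25b lie lower in every BAR library, Gbp2, Iigp1 and Fdps lie higher, and Cd8a and Ifng overlap.

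Inhibitory receptors and exhaustion genes divided as well, with 7 rises and 10 falls among 35 members and a median log2 fold change of -0.09. On the T cell scale 15 rose and 5 fell. Cd244, the receptor 2B4, was at 20.5, 24.1 and 24.0 CPM in BAR libraries, against 60.8, 42.4 and 52.5 CPM in BMF libraries (log2 -1.18, SE 0.185, adjusted p = 0.000345). Nfatc2, a calcium-driven transcription factor, fell by 0.99 (adjusted p = 6.63e-05) and Ikzf3, the factor Aiolos, by 0.74 (adjusted p = 0.000101), and all 3 were also lower on the T cell scale (Cd244 -0.76, Nfatc2 -0.56 and Ikzf3 -0.31). Nt5e, which encodes the adenosine-forming enzyme CD73, rose by 1.06 (adjusted p = 0.000192) and Cd200 by 0.80 (adjusted p = 5.69e-05). The best known checkpoint gene, Pdcd1, which encodes PD-1, was at 790, 595 and 696 CPM in BAR libraries, against 745, 745 and 759 CPM in BMF libraries (log2 -0.11, SE 0.132, adjusted p = 0.572). Tox, a driver of exhaustion, stood at -0.22 (adjusted p = 0.127). Lag3 stood at log2 0.46 (adjusted p = 0.0358), and its call was lost without BAR replicate 2 or 3 or BMF replicate 1 or 2 (adjusted p = 0.112 to 0.162).

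Of 34 naive and memory markers, 9 rose and 11 fell (median log2 fold change -0.08), and 14 rose and 2 fell on the T cell scale. Ccr7, a lymph node homing receptor, was at 8.06, 7.75 and 8.55 CPM in BAR libraries, against 5.11, 4.52 and 5.11 CPM in BMF libraries, without a call (adjusted p = 0.222). In the fit on the day 14 libraries alone it was called (adjusted p = 0.0086). Tcf7, which encodes the memory factor TCF1, stood at log2 0.27 (adjusted p = 0.401). Lef1, its relative, fell by 0.57 (adjusted p = 0.0045), with -0.14 on the T cell scale. Myb was at 57.7, 48.6 and 52.6 CPM in BAR libraries, against 17, 24.0 and 31.8 CPM in BMF libraries (log2 1.13, SE 0.185, adjusted p = 0.000484), and progenitor cells express it too. Satb1, a chromatin organiser of T cells, stood at -0.47 (adjusted p = 0.0402), a call lost without any one BAR library or BMF replicate 1 or 2 (adjusted p = 0.0502 to 0.162). Of 29 homing and chemokine receptors, 5 rose and 10 fell, and on the T cell scale 6 rose and 2 fell. Cxcr3, the receptor for the interferon-induced chemokines, was at 142, 138 and 127 CPM in BAR libraries, against 329, 302 and 185 CPM in BMF libraries (log2 -1.01, SE 0.195, adjusted p = 0.00176).

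**Figure D5:**
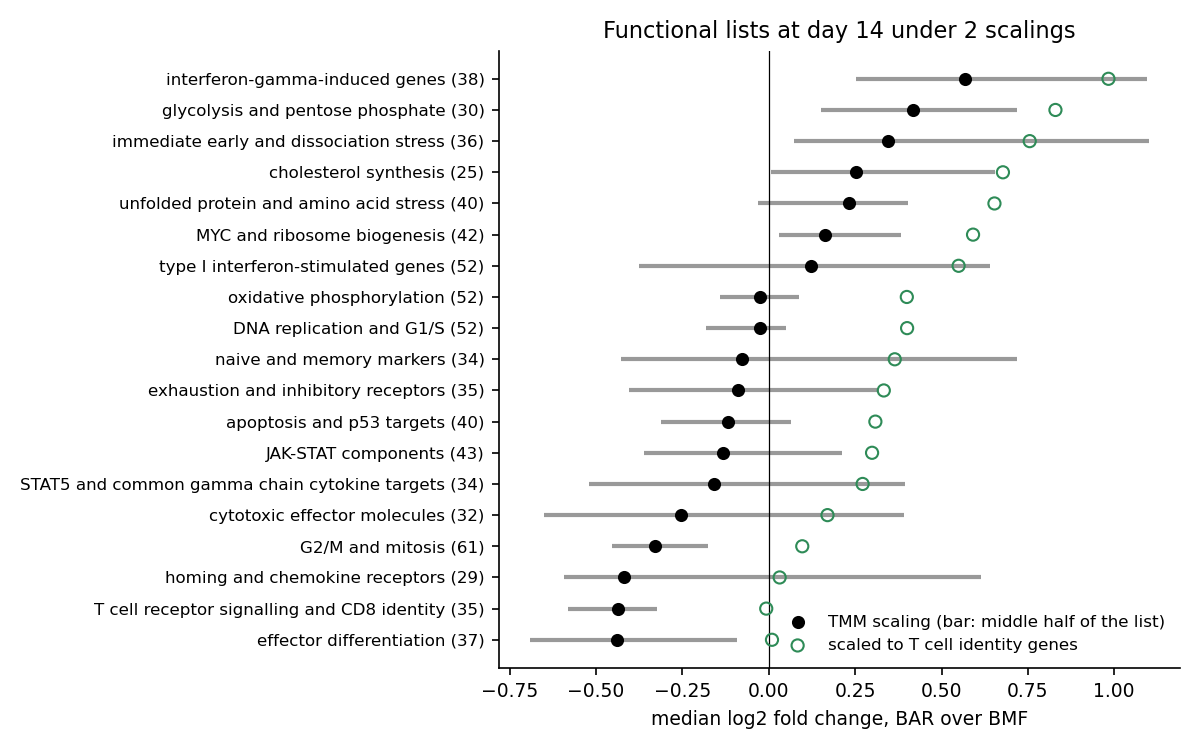
Median log2 fold change of BAR over BMF in each functional list at day 14 (horizontal axis, number of tested genes in brackets), with TMM scaling (black, bar from the lower to the upper quartile) and with scaling to T cell identity genes (green circles). The second scale moves every median up by about 0.40, so that lists below 0 with TMM scaling, other than T cell identity itself, lie above 0.

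Of 61 G2/M genes, 32 fell and none rose, with a median log2 fold change of -0.33, whereas on the T cell scale 8 rose and 1 fell, with a median of 0.10. Cdc25b, a phosphatase that starts mitosis (chromosome 2, 131186949 to 131198497, plus strand), was at 48.9, 46.2 and 47.9 CPM in BAR libraries, against 88.3, 95.9 and 78.1 CPM in BMF libraries (log2 -0.87, SE 0.117, adjusted p = 8.01e-05), and stood at -0.44 on the T cell scale (adjusted p = 0.0061). Kif4, a chromosome motor, fell by 0.67 and Racgap1, a regulator of cell division, by 0.58. On the T cell scale they stood at -0.24 and -0.15 and were not called (adjusted p = 0.12 and 0.22). None of the 8 members that rose on that scale is among the G2/M genes named here. Mki67, the proliferation antigen, was at 310, 235 and 268 CPM in BAR libraries, against 363, 463 and 325 CPM in BMF libraries (log2 -0.50, SE 0.165, adjusted p = 0.0334), a call lost without BAR replicate 2 or 3 or BMF replicate 1 or 2 (adjusted p = 0.0583 to 0.192). Of 52 DNA replication and G1/S genes, 3 rose and 2 fell, and on the T cell scale 34 rose and none fell. Ccne1, cyclin E1, rose by 0.53 (adjusted p = 0.000615) and Pole, the catalytic subunit of DNA polymerase epsilon, fell by 0.66 (adjusted p = 0.00042).

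In glycolysis and the pentose phosphate pathway, 15 of 30 rose and 1 fell (median 0.42), and on the T cell scale 26 rose and none fell. Pgd, phosphogluconate dehydrogenase, was at 260, 281 and 242 CPM in BAR libraries, against 104, 141 and 178 CPM in BMF libraries (log2 0.89, SE 0.147, adjusted p = 0.000431), and Tkt, transketolase, rose by 0.56 (adjusted p = 0.000411). The list shares Bpgm with the erythroid markers. With the neutrophil covariate Pgd stood at 0.49 (adjusted p = 0.018) and Tkt at 0.43 (adjusted p = 0.03). With the erythroid covariate they stood at -0.063 and 0.45, without a call. How much of these rises is RNA of red cell precursors or myeloid cells was not tested. In cholesterol synthesis, 11 of 25 rose and none fell (median 0.25), and on the T cell scale 21 rose. Fdps, farnesyl diphosphate synthase (chromosome 3, 89093588 to 89101959, minus strand), was at 122, 144 and 103 CPM in BAR libraries, against 36.8, 45.6 and 50.7 CPM in BMF libraries (log2 1.47, SE 0.166, adjusted p = 3.1e-05). Sqle, squalene epoxidase, was at 44.0, 58.6 and 41.2 CPM in BAR libraries, against 23.0, 22.8 and 21.3 CPM in BMF libraries (log2 1.10, SE 0.140, adjusted p = 5.85e-05). Of 42 MYC target and ribosome biogenesis genes, 15 rose and 2 fell, and on the T cell scale 36 rose, with Srm, spermidine synthase, at log2 0.83 per all RNA (adjusted p = 0.000252). Myc itself was not called (log2 -0.15, adjusted p = 0.344). Of 40 genes of unfolded protein and amino acid stress, 10 rose and 1 fell, and on the T cell scale 35 rose. Asns, asparagine synthetase, was at 84.1, 76.8 and 62.8 CPM in BAR libraries, against 24.3, 30.3 and 32.6 CPM in BMF libraries (log2 1.36, SE 0.168, adjusted p = 5.33e-05). It stood at 1.03 with the neutrophil covariate (adjusted p = 0.0021) and at -0.022, without a call, with the erythroid covariate. Oxidative phosphorylation gave 4 rises and 1 fall among 52, which became 41 rises on the T cell scale. Apoptosis and p53 targets gave 2 rises and 8 falls among 40, and 16 rises and 2 falls on the T cell scale, shares close to those of all tested genes (25.2% called per all RNA, 43.1% rising on the T cell scale). Of 36 immediate early and dissociation stress genes, 6 rose and 1 fell, and 21 rose on the T cell scale. Hspa1a, a heat shock protein gene whose reads could be shared with Hspa1b, was at 12.9, 22.7 and 16.4 CPM in BAR libraries, against 0.159, 1.12 and 0.300 CPM in BMF libraries (log2 5.03, SE 1.24, adjusted p = 0.0113), a call lost without BMF replicate 1 (adjusted p = 0.055).

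The 15 largest falls outside the marker lists, at 10 CPM or more in an arm, were Fabp4, D8Ertd82e, Prr5, Il12rb2, Cd7, Bcl2, Vax2, Ifi27l2a, Cep170b, Lamc1, S100a4, Hist2h4, Actn2, Cd244 and Adgrl1. Fabp4, a fatty acid carrier of fat cells and macrophages, was at 2.84, 1.17 and 2.39 CPM in BAR libraries, against 13.3, 8.41 and 10.1 CPM in BMF libraries (log2 -2.32, SE 0.277, adjusted p = 3.98e-05). Prr5, a component of the kinase complex mTORC2, was at 6.56, 6.61 and 8.45 CPM in BAR libraries, against 20.8, 18.4 and 20.7 CPM in BMF libraries (log2 -1.47, SE 0.145, adjusted p = 6.89e-06). D8Ertd82e, which encodes a pseudokinase, fell by 1.82, Vax2, a homeobox gene, by 1.28 and Cep170b, a centrosomal protein gene, by 1.24. All 5 of these stayed called on the T cell scale, between -1.89 for Fabp4 and -0.82 for Cep170b.

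The day 14 effect differed from that at day 10 for 1535 genes (10.3% of those tested), by a test of the difference itself, and 1232 of them were also called at day 14. At day 10 itself 2145 genes (14.4%) were called. The 2 days share no library. Of the 25 erythroid markers, 22 had a called difference with the larger log2 fold change at day 14, and none had a called difference the other way. Counted by the sign of day 14 minus day 10, interferon-gamma-induced genes had 14 positive and 1 negative differences. Glycolytic and pentose phosphate genes had 13 positive and none negative, G2/M genes none positive and 26 negative, and type I interferon-stimulated genes 2 positive and 19 negative. A negative difference need not be an effect of smaller size: the G2/M median log2 fold change was -0.33 at day 14 and 0.06 at day 10. Gbp2 averaged 630 ± 81.6 CPM in BAR and 190 ± 40.8 CPM in BMF at day 14 (SD, n = 3 each), and its log2 fold change was 1.73 at day 14 and -0.02 at day 10 (difference 1.75, SE 0.237, adjusted p = 0.00067). Gzma had -2.61 at day 14 and 0.16 at day 10 (difference -2.76, adjusted p = 0.00053). Ifi27l2a had -1.27 at day 14 and 0.81 at day 10 (difference -2.08, adjusted p = 0.00048), and Cd244 had -1.18 at day 14 and 0.58 at day 10 (difference -1.76, adjusted p = 0.00059). Some named genes had an effect of smaller size at day 14. Irf7 had 0.17 at day 14 and 1.14 at day 10 (difference -0.96, adjusted p = 0.021), and Gbp10 had 0.25 at day 14 and 1.28 at day 10 (difference -1.03, adjusted p = 0.0036). Epas1, which encodes the oxygen-regulated factor HIF-2 alpha, had -0.35 at day 14 and -2.25 at day 10 (difference 1.90, adjusted p = 0.0026). Satb1 had -0.47 at day 14 and -1.72 at day 10 (difference 1.25, adjusted p = 0.0016), and Il12rb2 -1.38 at day 14 and -2.37 at day 10 (difference 0.99, adjusted p = 0.031). Bcl2 (-1.28 and -0.67), Cish (-1.10 and -0.66) and Stat4 (-0.36 and -0.35) fell at both days, with no call for the difference (adjusted p = 0.084, 0.41 and 0.98). The summed erythroid RNA was 420 to 780 CPM in BAR libraries and 288 to 490 CPM in BMF libraries at day 10, so the arms differed less in it then.

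Erythroid and neutrophil RNA moved with the arm. When the summed erythroid RNA of each library was a covariate in the edgeR fit, no gene was called, with 1050 at an unadjusted p of 0.05 or less. The sums of the arms do not overlap at day 14, so this covariate and the treatment cannot be told apart. With the neutrophil sum as covariate, 963 genes were called, 506 higher and 457 lower in BAR, and 936 of them were among the 3738. Neutrophil sums do not overlap at day 14 either, at 43894 to 58663 CPM in BAR libraries and 3371 to 25504 CPM in BMF libraries. Calls kept in that fit are therefore not separated from neutrophil RNA. The functional lists lost calls unequally in that fit, where 3.40% of all genes rose and 3.07% fell. Interferon-gamma-induced genes had 16 rises, against 20 without the covariate, MYC target and ribosome biogenesis genes 10 against 15, cholesterol synthesis 8 against 11 and glycolysis 5 against 15. G2/M genes had 5 falls against 32, T cell identity genes 10 against 24, cytotoxic effector genes 3 against 13 and effector differentiation genes 3 against 19. Type I interferon-stimulated genes had 5 rises and 5 falls, against 11 and 13.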

How the data were processed

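Flow-sorted marrow CD8+ T cells were sequenced as polyA RNA on an Illumina NovaSeq, per the labels. The authors deposited raw counts per gene. HISAT2 2.0.5 and the mm10 build are named in the submitters' processing notes, while the counting tool, annotation and strand setting are not stated in the labels used here. Coordinates came from GENCODE for mm10. Of 24421 entries, 27 were calendar dates and were left out. With R 4.3.3 and edgeR 4.0.16, genes passing filterByExpr were fitted over all 16 libraries with TMM scaling and a robust quasi-likelihood model with a mean per group. P-values were adjusted by Benjamini-Hochberg across the whole table of tested genes, and 0.05 was the threshold. Standard errors are the log2 fold change over the root of F. CPM values are mean ± SD over n = 3. Marker sums were compared by exact permutation. The steps were tested on simulated data. Replicate pairs differed beyond sampling noise (chi-square per degree of freedom 45.5 to 129).

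Named genes were the 15 largest rises and 15 largest falls among called genes with no overlap, at 10 CPM or more in an arm and outside the marker lists, called genes of each list and a set of anchor genes, some of which are not reported here. Members and lists were chosen with earlier results of these data known. Alternatives were DESeq2 1.42.0, limma 3.58.1, other scalings and filters, covariates and leaving out each library.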

Additional observations from a re-analysis of the deposited data

Results flagged for a closer look

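The effect of baricitinib differed between day 14 and day 10 for 1535 genes in edgeR's test of the difference at an adjusted p of 0.05 or less. The libraries of the 2 days also differed in genes detected and in Rn45s, as given above. Among the named genes the difference is given as the log2 effect at day 14 minus that at day 10, with 3 BAR and 3 BMF libraries at day 14 and 5 BAR and 5 BMF libraries at day 10. The values above 0 were largest for these genes, most of them erythroid, basophil or progenitor genes: Hspa1a 6.51, Sphk1 6.02, Aqp1 5.70, Rhag 5.59, Ank1 5.41, Cd200r3 5.29, Cldn13 5.22, Pklr 5.21, Ermap 5.15, Slc38a5 5.09, Prss34 4.96, Gfi1b 4.91, Apol11b 4.89, Klf1 4.66 and Gata2 4.40. Other values above 0 were Epas1 1.90, Iigp1 1.86, Gbp2 1.75, Ifi204 1.38, Satb1 1.25, Ccl3 1.07, Asns 1.06, Fdps 1.04, Il12rb2 0.99, Irgm2 0.96, Lap3 0.87, Pgd 0.71, Sqle 0.67, Irgm1 0.65 and Tkt 0.60. The values below 0 were Eomes -0.55, Racgap1 -0.56, Usp18 -0.62, Runx3 -0.65, Fasl -0.69, Pole -0.73, Kif4 -0.80, Gzmk -0.81, Cxcr3 -0.83, D8Ertd82e -0.84, Rasgrp1 -0.86, Cdc25b -0.87, Ikzf3 -0.88, Irf7 -0.96, Pim2 -0.97, Gbp10 -1.03, Phf11b -1.03, Prr5 -1.33, Vax2 -1.35, Cep170b -1.39, Itga2 -1.48, Cd7 -1.57, Cd244 -1.76, C1qa -1.84, Ifi27l2a -2.08, Mrc1 -2.41, Fabp4 -2.46, Gzma -2.76 and Klrb1c -3.30.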

How the results depend on the processing

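No paired analysis was possible because replicate numbers follow accession order and pair no libraries. DESeq2, limma voom, RLE size factors, other filters on low counts, an Rn45s covariate, scaling without marker genes and the day 14 libraries alone each kept the 3738 calls within 1.5 times, between 2973 and 4299. The day 14 libraries alone added calls for Ccr7 (adjusted p = 0.0086) and Socs3 (adjusted p = 0.028). In the same fit Cd34, Lag3, Lyz2, Mki67, Prss34, Satb1 and Socs1 lost theirs (adjusted p = 0.0504 to 0.094). It gave 16 rises of 36 immediate early genes in place of 6, and 14 of 21 dendritic markers in place of 6 of 24. Calls shared with the main result had the same sign under every setting. Leaving out each library in turn gave 2119 to 4051 calls, 1109 to 2060 rises, 971 to 1991 falls and 679 to 2025 differences between days. The lowest counts came without BAR replicate 2 and BMF replicates 1 and 2 of day 14. Of 89 named genes called, 73 stayed called without any one library. A test against a fold of 1.5 gave 556 calls (481 rises, 75 falls) and 160 differences between days. Scaling to T cell identity genes gave 6604 (6403 rises, 201 falls, so that rises made up 97% of calls against 51.4%) and 2681, the neutrophil covariate 963 (506 rises, 457 falls) and 899, and the erythroid covariate 0, with 1050 genes at an unadjusted p of 0.05 or less, and 0. Both covariates together, chosen after seeing the data, gave 0 at day 14, with 1385 genes at an unadjusted p of 0.05 or less, and 12 differences between days. For single genes the log2 fold change changed sign as follows, and the cause was not tested. With the T cell scaling, which Cd3e and Cd8a themselves help to set, the values were Cd3e 0.024, Cd8a 0.092, Cx3cr1 0.056, Eomes 0.033, Epas1 0.080, Il2ra 0.17, Jak1 0.093, Jak2 0.26, Myc 0.27, Pdcd1 0.31, Stat4 0.068 and Tox 0.21. With the neutrophil covariate they were Il2ra 0.034, Irf7 -0.19, Myc 0.089, Pim1 -0.19, S100a8 -0.34 and Socs3 -0.081. With the erythroid covariate they were Asns -0.022, Ccr7 -0.72, Cd244 0.12, Cd34 -0.47, Cd8a 0.33, Cish 0.083, Fasl 0.10, Gzmb 0.69, Irf7 -0.12, Lyz2 -1.95, Mpo -3.95, Myc 0.51, Pgd -0.063, Pglyrp1 -0.65, Pim1 -0.74, S100a8 -3.11, Socs3 -0.29, Tcf7 -0.84, Thy1 0.082, Tnf -0.81, Tox 0.32 and Zeb2 -0.17. With both covariates they were Ccr7 -0.0078, Fasl 0.091, Gzmb 0.86, Mpo -0.033, Myc 0.26, Pglyrp1 -0.049, Pim1 -0.55, S100a8 -0.77, Stat5a -0.078, Tcf7 -1.20, Tnf -0.59, Tox 0.27 and Zeb2 -0.32. The mean log2 CPM over a list, in place of its sum, gave the other sign for natural killer (-0.53), stem and progenitor (2.04) and stromal markers (0.50). The megakaryocyte sum difference lay between -30.8 and 37.4 CPM without each library in turn.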
